A study of Homo sapiens with 2 samples.

Results

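Cluster 5 is the group of TGFB1-treated stromal cells with the lowest median count of captured RNA molecules per cell. Its members were the cells that the authors' deposited cell table places in the TGFB1 library and in cluster 5. They numbered 1218 of 12555 TGFB1 cells (9.70%) and of 20656 cells in all, and they gave 1.82% of the library's unique molecular identifiers (UMIs, each standing for 1 captured RNA molecule). The cells are commercial human mesenchymal stem cells derived from adipose tissue. Near-confluent cultures were starved overnight and then either received 10 ng/mL TGFB1 for 24 h or were left untreated. Both cultures were detached with trypsin, frozen, shipped and measured by 10x single-cell sequencing. Each condition is 1 library, so no difference has a replicate check, cells were not used as replicates and no p-value was computed. The 95% intervals cover counting error only.

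Single-cell counts carry several kinds of RNA that live in different places. MALAT1 and NEAT1 are long non-coding RNAs retained in the nucleus, where MALAT1 sits at nuclear speckles and NEAT1 builds paraspeckles. The mitochondrial mRNAs encode subunits of the respiratory chain inside the organelle, and ribosomal protein mRNAs are short, abundant cytoplasmic messages. TGFB1 signals through SMAD transcription factors and is known to raise matrix and contractile genes in stromal cells. Fewer RNA molecules in a cell and poorer capture of the same molecules cannot be told apart from UMI counts.

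Cluster 5 held 663 to 27583 UMIs per cell, with a median of 2571 and quartiles of 1717 and 3817. The median was 12007 in cluster 0, 21819 in cluster 3 and 15941 in cluster 4, the 3 large TGFB1 clusters it was compared with (10267 cells). The mean per cell was 5.74-fold higher in those 3 clusters together than in cluster 5. Among the 11 cluster numbers of the TGFB1 library, cluster 5 had the lowest median. It held a median of 1372.5 detected genes per cell, and its lowest was 502 genes. Its median mitochondrial share per cell was 3.22%, against 2.42% in clusters 0, 3 and 4, and 24.0% of its cells lay above 4%, against 10.9%. The deposited cells stop at 5%, so cells with a larger share were not seen here.

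**Figure D1:**
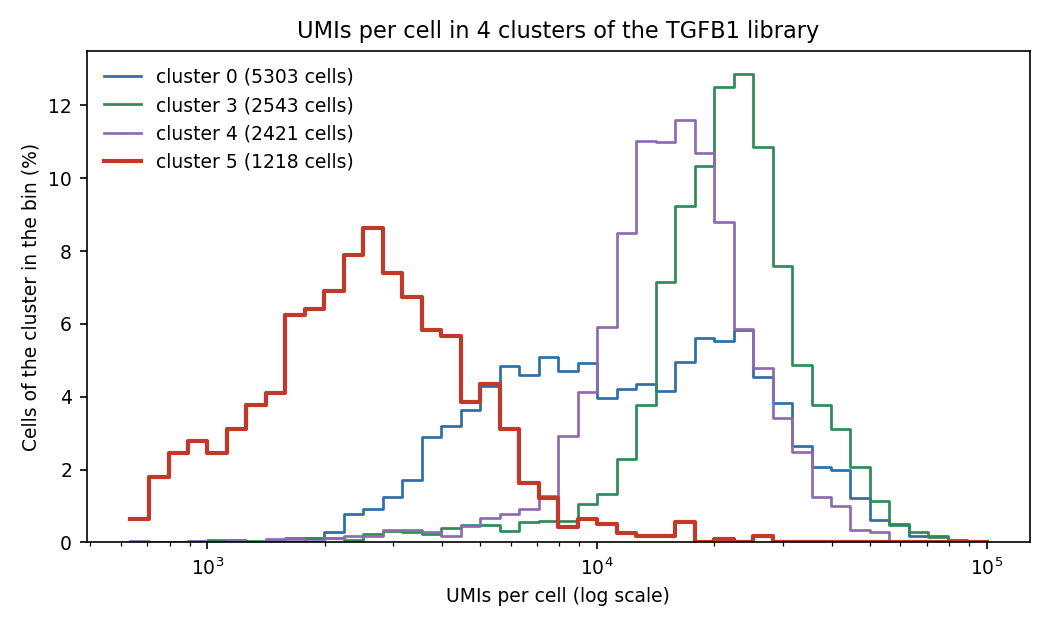
UMIs per cell (log x axis) against the percent of a cluster's cells in each bin, for clusters 0, 3, 4 and 5 of the TGFB1 library. Cluster 5 peaks near its median of 2571 UMIs, and its right side overlaps the left side of cluster 0.

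Low depth was not limited to cluster 5. The range from its 5th to its 95th percentile (892 to 6520.6 UMIs) held 25.4% of cluster 0, 3.50% of cluster 3 and 4.13% of cluster 4. Those 1536 cells, of which 1347 were from cluster 0, are called the same-depth cells. Their median was 4601.5 UMIs and their mean was 1.46-fold that of cluster 5, so the match in depth was partial. The same range held 4.22% of untreated cells (342 of 8101) and 14.6% of TGFB1 cells outside cluster 5. The untreated library had 6 cells in cluster 5, so 99.5% of the cluster came from the TGFB1 library, and the effect of TGFB1 within the cluster could not be measured. Cell barcodes shared with the untreated library numbered 3 in cluster 5, of 18 in the TGFB1 library.

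The cells carried the markers of their label. All 16 mesenchymal markers were at 5 CPM or more (a gene's UMIs per 1000000 UMIs of the group) in cluster 5. They summed to 32695 CPM, against 30610 CPM in clusters 0, 3 and 4. Of 12 leukocyte markers 5 were above 0, with 76 UMIs together, and CD14, CD3D, CD3E, CD79A, MS4A1, NKG7 and TYROBP were at 0. Of 6 erythroid and platelet markers 1 had a single UMI, of 8 endothelial markers 2 were above 0 (PECAM1, CDH5, VWF, KDR, CLDN5 and TIE1 were at 0), and all 5 Schwann markers were at 0. Of 8 adipocyte markers 2 were above 0, with ADIPOQ, PLIN1 and FABP4 at 0. Markers of 3 further cell types were present at levels close to those of the compared cells. Of the 9 pericyte, 7 epithelial and 6 melanocyte markers, 8, 5 and 3 were above 0. They summed to 86.7, 244 and 16.3 CPM in cluster 5 and to 87.5, 274 and 17.3 CPM in clusters 0, 3 and 4.

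The make-up of the RNA was close to that of the other treated cells. Across 6213 genes at 20 CPM or more in cluster 5 or in clusters 0, 3 and 4, the Pearson correlation of log2(CPM + 1) was 0.989, a description across genes that share 1 library. Taken singly, cluster 0 was nearest (r = 0.980), then cluster 3 (0.967) and cluster 4 (0.963), while all untreated cells gave 0.925. The same-depth cells gave 0.978, so the match in depth did not bring the profiles closer. Of the 6213 genes, 10 differed at least 2-fold from the 3 clusters together and 22 from the same-depth cells. Taken singly, clusters 0, 3 and 4 gave 25, 112 and 233. Of 10486 genes at 5 CPM or more in cluster 5 or in clusters 0, 3 and 4, 64 (0.61%) were at least 2-fold higher in cluster 5 and 13 (0.124%) at least 2-fold lower. At 1.5-fold, 217 were higher (2.07%) and 233 lower (2.22%), and the median log2 ratio was -0.04. Against all other TGFB1 cells, a 2-fold excess was seen in 42 of 10534 genes (0.399%) and a 2-fold deficit in 21 (0.199%); 1.59% and 2.72% passed 1.5-fold. These clusters were drawn from the same genes, so the counts describe the cluster and test nothing. The genes that gave cluster 5 the most UMIs were FN1, ACTB, COL1A1, COL1A2, MALAT1, TAGLN, MT-CO1, TPM1, MT-CO3 and TMSB10.

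**Figure D2:**
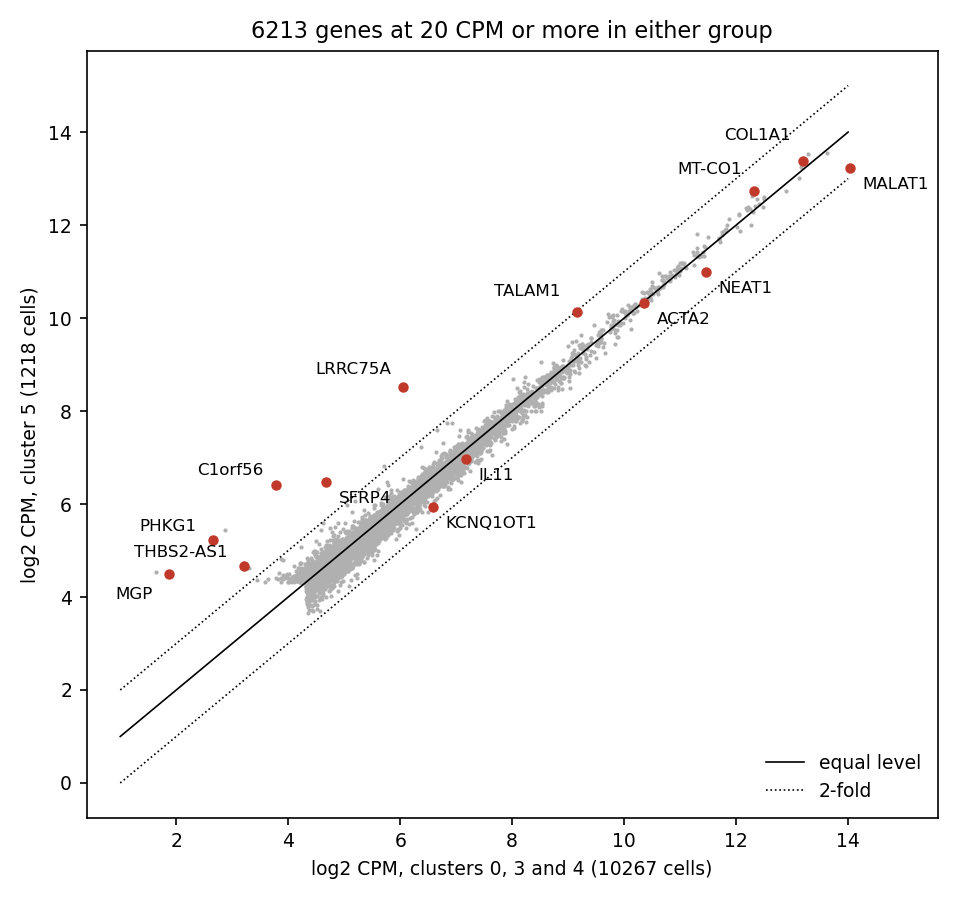
Level in cluster 5 (y, log2 CPM) against level in clusters 0, 3 and 4 (x, log2 CPM), 1 point per gene, for 6213 genes at 20 CPM or more in either group. Most genes lie on the line of equal level; LRRC75A, C1orf56, PHKG1, MGP and SFRP4 stand above the 2-fold line, and MALAT1 lies low among the abundant genes.

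The nuclear long RNAs were lower in cluster 5 than in clusters 0 and 3, and higher than in cluster 4. The 15 RNAs listed gave 1.41% of UMIs in cluster 5 (1.40 to 1.42), 2.81% in cluster 0, 2.12% in cluster 3 and 0.989% in cluster 4. Over clusters 0, 3 and 4 together the share was 2.17%, so cluster 5 was 1.54-fold lower (1.53 to 1.56). Against the same-depth cells, at 2.63%, it was 1.86-fold lower (1.84 to 1.88). Thinning every cell to 1500 UMIs, which left out 230 cells of cluster 5 and 12 of the others, gave a log2 ratio of -0.64 in place of -0.62.

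MALAT1 (GRCh38 chr11:65497688-65506516) carried most of this. It gave 0.962% of UMIs in cluster 5, 2.17% in cluster 0, 1.60% in cluster 3 and 0.784% in cluster 4. The same-depth cells held 1.92% and the untreated cells of that depth 4.06%. Cluster 5 thus lay above cluster 4 and below every other group named here. Among cells thinned to 1500 UMIs, the median MALAT1 share in cluster 5 was 0.733% (quartiles 0.467 and 1.13), with 5 of 988 cells at 0. Cluster 0 had a median of 1.93% and none of 5300 cells at 0. Cluster 4 had a median of 0.533%, with 328 of 2418 cells at 0. The spread of MALAT1 over the thinned cells of cluster 5 was 3.49 times the binomial value, so its cells were not alike in this RNA. That was not particular to cluster 5: the values were 3.55, 2.40 and 3.29 in clusters 0, 3 and 4 and 4.35 in the same-depth cells.

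NEAT1 (chr11:65422774-65445540) gave 2034 CPM in cluster 5 and 2820 CPM in clusters 0, 3 and 4, 1.39-fold lower (1.36 to 1.42), and 3153 CPM in the same-depth cells. KCNQ1OT1, an imprinted RNA that silences its neighbours, stood at 60.9, 96.1 and 124 CPM in the same order, and the imprinted RNA MEG3 at 126, 174 and 195 CPM. Both were also higher in cluster 5 than in cluster 4, where they stood at 24.7 and 69.1 CPM. TUG1 and OIP5-AS1 differed little, at 51.1 and 44.6 CPM in cluster 5 and 49.0 and 43.1 CPM in clusters 0, 3 and 4. Of the 13 listed RNAs measured, 2 were at least 1.5-fold lower (MALAT1 and KCNQ1OT1) and 1 higher, with a median log2 ratio of -0.26. Against the same-depth cells 7 of 13 were lower and 0 higher and the median log2 ratio was -0.63, where 11.1% of all 10753 genes measured were lower and 1.47% higher.

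The RNA that was higher is TALAM1, transcribed opposite to MALAT1. It stood at 1113 CPM in cluster 5, 959 CPM in cluster 0, 398 CPM in cluster 3 and 54.3 CPM in cluster 4. The same-depth cells held 2003 CPM, above cluster 5. No source used here says whether counting used the strand, so reads of TALAM1 and MALAT1 may not be fully separated.

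MALAT1 did not follow depth in the same way inside and outside the cluster. In cluster 5 its share was 1.51% in cells under 1500 UMIs, 1.15% from 1500 to 2500, 0.796% from 2500 to 5000 and 0.720% from 5000 to 10000. The last bin, over 10000 UMIs, held 23 cells and stood at 1.56%. In cluster 0 the share was 2.32%, 1.96%, 2.15% and 2.18% over the bins from 1500 UMIs up. At each depth from 1500 to 10000 UMIs, cluster 5 was thus below cluster 0. Cluster 4 stood at 0.682% and 0.675% from 2500 to 5000 and from 5000 to 10000 UMIs, close to cluster 5 at those depths.

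**Figure D3:**
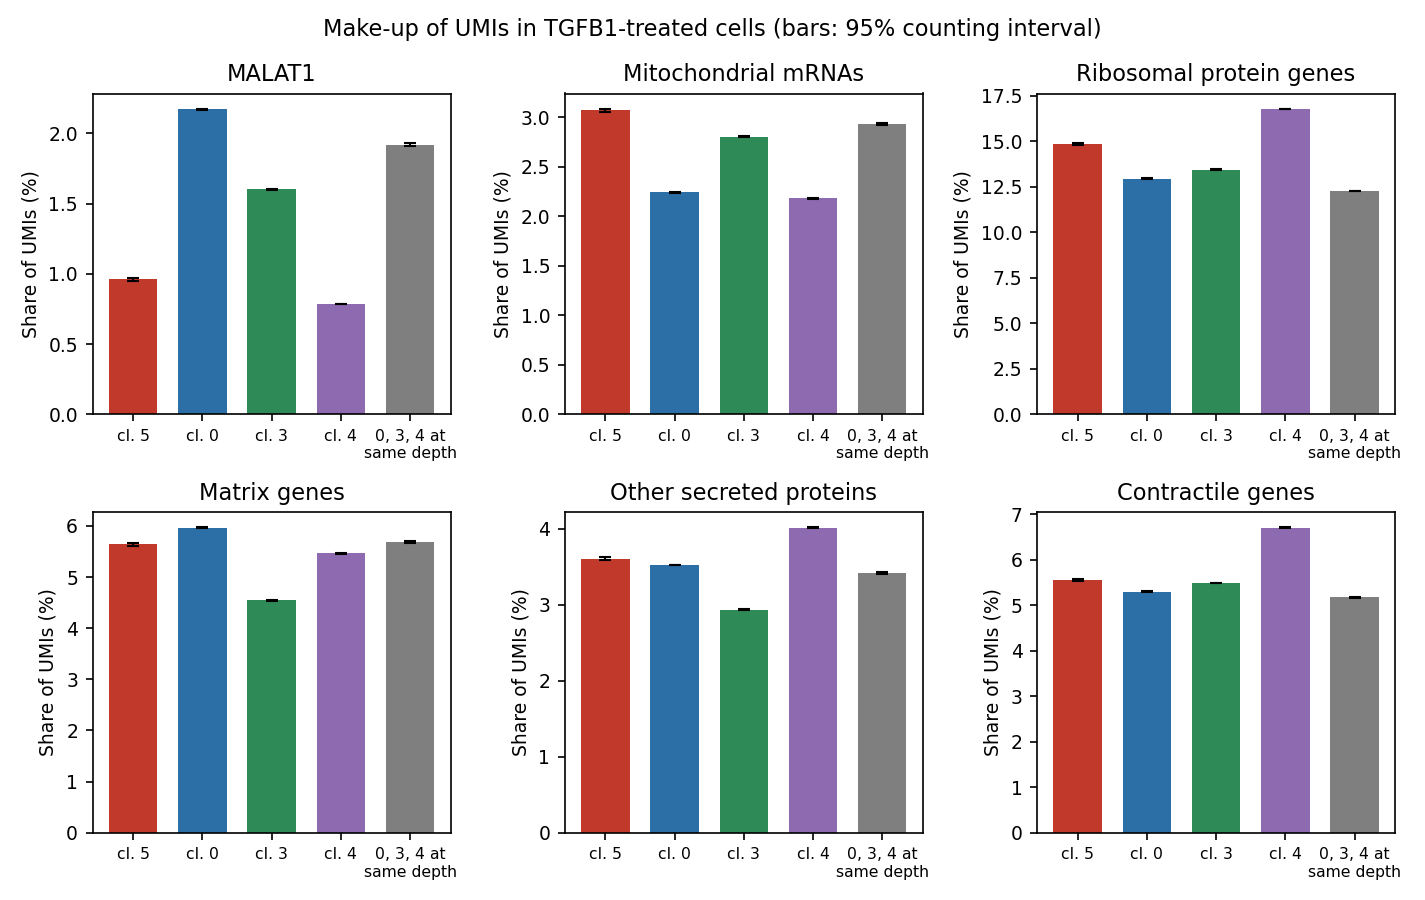
Share of summed UMIs (%) from MALAT1 and 5 gene classes in cluster 5, in clusters 0, 3 and 4 and in the same-depth cells of those clusters, all TGFB1-treated; error bars are 95% counting intervals. Cluster 5 has less MALAT1 than clusters 0 and 3 and the same-depth cells, matrix and contractile shares within the range of the other groups, and a mitochondrial share near that of the same-depth cells.

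Mitochondrial mRNAs took a larger share in cluster 5. The 13 mRNAs gave 3.07% of its UMIs (3.05 to 3.08), against 2.24% in cluster 0, 2.8% in cluster 3 and 2.18% in cluster 4, and 1.27-fold the share of the 3 together (1.27 to 1.28). The same-depth cells held 2.93%, which cluster 5 exceeded 1.05-fold (1.04 to 1.05). All 13 were higher in cluster 5 than in clusters 0, 3 and 4. At 1.5-fold, where 2.07% of all genes were higher, 3 of the 13 passed. These were MT-ND6 (48.5 against 24.5 CPM), MT-ATP8 (27.9 against 15 CPM) and MT-ND5 (416 against 259 CPM), subunits of complex I, ATP synthase and complex I. Against the same-depth cells 0 of 13 passed 1.5-fold in either direction, and their log2 ratios ran from -0.57 to 0.13. MT-ND6 is the mitochondrial mRNA encoded on the opposite strand, beside MT-ND5, and the same caution on strand applies. MT-CO1, a subunit of cytochrome c oxidase, stood at 6838 CPM in cluster 5, 5132 CPM in clusters 0, 3 and 4 and 6626 CPM in the same-depth cells. Against clusters 0, 3 and 4 the nuclear genes of the respiratory chain moved less: 0 of 36 passed 1.5-fold. Their median log2 ratio was 0.13, and that of the 13 mitochondrial mRNAs was 0.49. The order was the opposite against the same-depth cells, with medians of 0.31 for the nuclear genes and 0.03 for the mitochondrial mRNAs. The share of the nuclear genes was 1.24-fold that of the same-depth cells (1.22 to 1.25), and 0 of 36 passed 1.5-fold there.

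Ribosomal protein mRNAs gave 14.8% of UMIs in cluster 5, 12.9% in cluster 0, 13.4% in cluster 3 and 16.8% in cluster 4. The same-depth cells held 12.3%, which cluster 5 exceeded 1.21-fold (1.21 to 1.22). None of 82 genes measured passed 1.5-fold in either comparison, with median log2 ratios of 0.10 over clusters 0, 3 and 4 and 0.28 over the same-depth cells. RPLP1, of the ribosome stalk, stood at 5247 CPM in cluster 5, 4627 CPM in clusters 0, 3 and 4 and 4180 CPM in the same-depth cells. Thinned cells of cluster 5 were more alike in this class than those of clusters 0, 3 and 4. Their spread was 2.04 times the binomial value, against 3.03, 2.69 and 2.74.

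The low nuclear share went with a lower share of long genes. By gene length in GENCODE 29 (GRCh38), protein-coding genes over 300 kb gave 3.86% of UMIs in cluster 5, 5.32% in cluster 0, 5.45% in cluster 3, 2.25% in cluster 4 and 5.58% in the same-depth cells. Genes under 10 kb gave 32.2%, 28.3%, 29.7%, 37.5% and 27.2% in the same order. Cluster 5 lay between cluster 4 and the other groups in both. Against the same-depth cells, the median log2 ratio was lower for each longer class, from 0.20 under 10 kb through -0.0019, -0.19 and -0.35 to -0.56 over 300 kb. In that longest class 192 of 427 genes were at least 1.5-fold lower. Of all 10753 genes measured against those cells, 11.1% were 1.5-fold lower, and the median log2 ratio was -0.11. Against clusters 0, 3 and 4 the class medians ran from 0.04 to -0.27, where the median of all genes was -0.04. No source used here says whether intronic reads were counted.

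In a fixed list of long genes of neuronal type, 11 of 17 measured were at least 1.5-fold lower than in the same-depth cells and 0 higher. Of all genes measured there, 11.1% were lower and 1.47% higher. Against clusters 0, 3 and 4, 3 of 17 were lower and 0 higher, where 2.22% of all genes were lower and 2.07% higher. The list's share of UMIs was 2.09-fold higher in cluster 5 than in cluster 4. PRKG1, a cGMP-dependent kinase, stood at 401 CPM in cluster 5 and 700 CPM in the same-depth cells, against 515 CPM in clusters 0, 3 and 4. The adhesion protein gene LSAMP stood at 158, 257 and 241 CPM. Among the 12 lowest ratios over clusters 0, 3 and 4, ZC3H12B was 1.85-fold lower, NUMA1, a spindle protein, 1.82-fold, LINC03051 1.76-fold, MALAT1 1.74-fold (1.72 to 1.76), KLHL29 1.67-fold and AHRR, the repressor of the aryl hydrocarbon receptor, 1.67-fold. All 6 were lower still against the same-depth cells, by 2.57-fold for ZC3H12B and 2.00-fold for MALAT1.

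Matrix genes gave 5.64% of UMIs in cluster 5, 5.97% in cluster 0, 4.55% in cluster 3, 5.47% in cluster 4 and 5.68% in the same-depth cells. The largest members lay close together. COL1A1 stood at 10619 CPM in cluster 5, 10498 in cluster 0, 7661 in cluster 3 and 9560 in cluster 4. COL1A2 stood at 9682 CPM and FN1, fibronectin, at 11916 CPM in cluster 5, against 9162 and 12551 CPM in clusters 0, 3 and 4. Of 37 matrix genes 2 passed 1.5-fold, both upward, where 2.07% of all genes were higher. POSTN, the matrix protein periostin, stood at 216 CPM in cluster 5, 170 in cluster 0, 53.9 in cluster 3, 86.6 in cluster 4 and 215 in the same-depth cells, so its excess was absent against the same-depth cells. COL11A1, a minor fibrillar collagen, stood at 9.75 CPM against 4.04 CPM, and 11.3 CPM in the same-depth cells. It reached 5 CPM only through cluster 5, so it was counted only because it was higher there.

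Other secreted proteins gave 3.61% of UMIs in cluster 5, 3.52% in cluster 0, 2.93% in cluster 3, 4.01% in cluster 4 and 3.42% in the same-depth cells. Over clusters 0, 3 and 4, 2.07% of all genes were 1.5-fold higher and 2.22% lower. Of 35 secreted protein genes measured, 1 passed 1.5-fold, the neutrophil chemokine CXCL8, at 5.54 CPM (21 UMIs) against 2.51 CPM. It reached 5 CPM only through cluster 5 and so had to pass. Of 13 inflammatory genes measured, PTGS2, the inducible cyclooxygenase, and CXCL8 passed upward and CXCL12, a chemokine, downward, at 3.95 CPM (15 UMIs) against 6.52 CPM. PTGS2 stood at 33.7 against 18.8 CPM. The same-depth cells held 28.2 CPM of PTGS2 and 6.18 CPM of CXCL8, and against them 0 of 13 inflammatory and 0 of 35 secreted protein genes were 1.5-fold higher. CXCL12 stayed lower there, at 6.18 CPM in those cells.

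Contractile genes gave 5.56% of UMIs in cluster 5 (5.54 to 5.58), 5.30% in cluster 0, 5.49% in cluster 3, 6.70% in cluster 4 and 5.17% in the same-depth cells. None of 29 genes measured passed 1.5-fold in either comparison. ACTA2, smooth muscle actin, stood at 1274 CPM in cluster 5, 1249 in cluster 0, 987 in cluster 3 and 1885 in cluster 4. TAGLN, transgelin, stood at 8207, 8170, 7773 and 11802 CPM, and TPM1, a tropomyosin, at 6818 CPM in cluster 5 and 7624 CPM in clusters 0, 3 and 4.

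Genes that respond to TGFB1 were at the treated level. The 22 SMAD response genes gave 1.22% of UMIs in cluster 5, 1.22% in clusters 0, 3 and 4 and 1.18% in the same-depth cells, against 0.389% in untreated cells of the same depth. None of 22 passed 1.5-fold against clusters 0, 3 and 4. Against the same-depth cells 2 of 22 did, LDLRAD4, which restrains the pathway, 1.58-fold lower and NOX4, an oxidase that makes hydrogen peroxide, 1.63-fold lower. Of all 10753 genes measured against those cells, 11.1% were 1.5-fold lower, so 2 of 22 was near the general share. Against untreated cells of that depth, 18 of 22 were higher and 1 lower, with a median log2 ratio of 1.40. Of all 11726 genes measured there, 10.2% were 1.5-fold higher and 33.1% 1.5-fold lower, and 3.79% and 18.0% passed 2-fold upward and downward. The median log2 ratio of those genes was -0.27. IL11, a secreted cytokine of the interleukin 6 family, stood at 125 CPM in cluster 5, 110 in cluster 0, 183 in cluster 3 and 160 in cluster 4, against 3.50 CPM (4 UMIs) in those untreated cells. TPM1 was 5.68-fold higher than there (5.38 to 6.01) and ACTA2 4.33-fold (3.88 to 4.85). SMAD6, an inhibitor of the pathway, was the lower gene, at 9.75 against 16.6 CPM.

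Of the contractile genes 21 of 29 were higher than in untreated cells of that depth and 0 lower. All 17 genes of a list that is lower after TGFB1 were lower, a list chosen on these libraries, so its direction is not independent evidence. TWIST2, a stromal transcription factor, stood at 179 against 772 CPM. PTX3, a pattern recognition protein, stood at 14.2 against 169 CPM and TGFBR3, the TGFB co-receptor betaglycan, at 8.17 against 65.6 CPM. In clusters 0, 3 and 4 these 3 stood at 209, 10.9 and 10.1 CPM, near cluster 5.

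**Figure D4:**
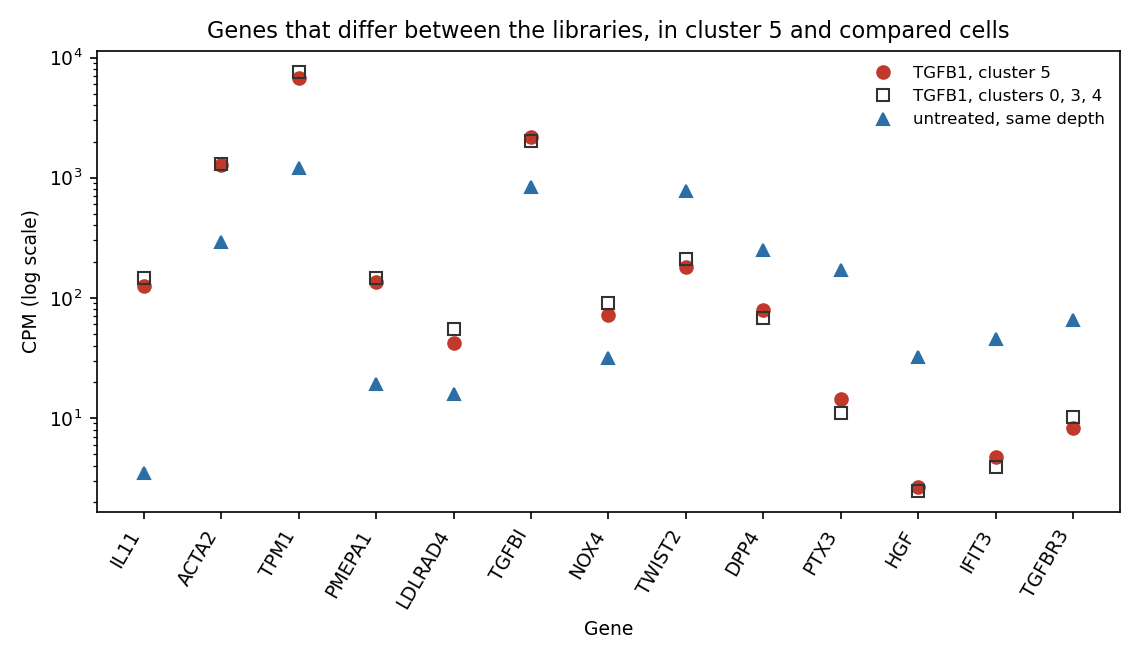
CPM (log y axis) of 13 genes, chosen with these libraries' levels known, in cluster 5 (filled circles), in clusters 0, 3 and 4 of the TGFB1 library (open squares) and in untreated cells of cluster 5's depth (triangles). Circles and squares nearly coincide and lie away from the triangles, as for IL11 (125, 145 and 3.50 CPM).

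The share of cells with a UMI of a gene differed with depth. IL11 had a UMI in 27.4% of cluster 5 cells, 61.3% of cluster 0, 83.6% of cluster 3 and 70.6% of cluster 4. With each cell thinned to 1500 UMIs the shares were 17.1% (14.8 to 19.6), 15.4%, 23.9% and 18.8%, and 1.10% (3 of 273) in untreated cells of the same depth. PTPRC, a leukocyte gene that these cells should lack, had a UMI in 0.101% of thinned cluster 5 cells (1 of 988). Thinned cells of cluster 5 had a median of 913 genes, between cluster 4 (840) and clusters 3 (927) and 0 (939).

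A small group of genes had about as many UMIs per cell in cluster 5 as in cells with 5.74-fold the depth. Of the 6213 genes at 20 CPM or more, 5 had at least as many. They were C1orf56 (0.264 per cell against 0.247), PHKG1, a phosphorylase kinase subunit (0.117 against 0.113), MGP, matrix Gla protein (0.0706 against 0.0657), and the unnamed genes ENSG00000267458 and ENSG00000287916. All 5 reached 20 CPM only through cluster 5. LRRC75A (chr17:16441577-16492153) had nearly as many, 1.15 per cell against 1.19. The median gene had 5.90-fold fewer. On the CPM scale the same genes led the ratios over clusters 0, 3 and 4.

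LRRC75A stood at 369 CPM in cluster 5, 101 in cluster 0, 35.8 in cluster 3 and 42.6 in cluster 4, 5.53-fold higher than in the 3 together (5.23 to 5.85). The same-depth cells held 322 CPM, and cluster 5 was 1.15-fold above them (1.07 to 1.23). C1orf56 (chr1:151047740-151051986) stood at 84.6, 20.1, 8.48 and 8.81 CPM in clusters 5, 0, 3 and 4 and at 64.6 CPM in the same-depth cells. SFRP4, a secreted Wnt antagonist, stood at 89.1, 41.1, 7.97 and 19.5 CPM and at 74.6 CPM in the same-depth cells. MGP stood at 22.7, 5.66, 1.23 and 3.22 CPM, and at 17.0 CPM in the same-depth cells. PHKG1 stood at 37.7, 9.49, 3.67 and 3.72 CPM, and at 35.3 CPM in the same-depth cells. Each of these ratios was 1.34-fold or less against the same-depth cells. Of those cells 1347 of 1536 were from cluster 0, so the cluster mix changed along with the depth. In the untreated library LRRC75A stood at 36.5 CPM over all cells and at 158 CPM in cells of the same depth, so the level was higher at low depth there too.

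Of the other genes among the 12 highest ratios, PCSK7, a proprotein convertase, stood at 112 CPM in cluster 5, 52.7 in clusters 0, 3 and 4 and 110 in the same-depth cells. THBS2-AS1, antisense to the gene for thrombospondin 2, stood at 25.6, 9.28 and 29 CPM. CTNNB1, beta-catenin, named after its values were seen, stood at 193, 100 and 206 CPM. Against the same-depth cells 15 genes were at least 2-fold higher in cluster 5 (0.139%) and 209 lower (1.94%). ENG, the TGFB co-receptor endoglin, stood at 12.9 CPM (49 UMIs) in cluster 5, 2.35 CPM in clusters 0, 3 and 4 and 8.04 CPM in the same-depth cells, which cluster 5 exceeded 1.61-fold (1.07 to 2.40). Set against clusters 0, 3 and 4, ENG reached 5 CPM only through cluster 5 and so had to pass 2-fold.

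**Figure D5:**
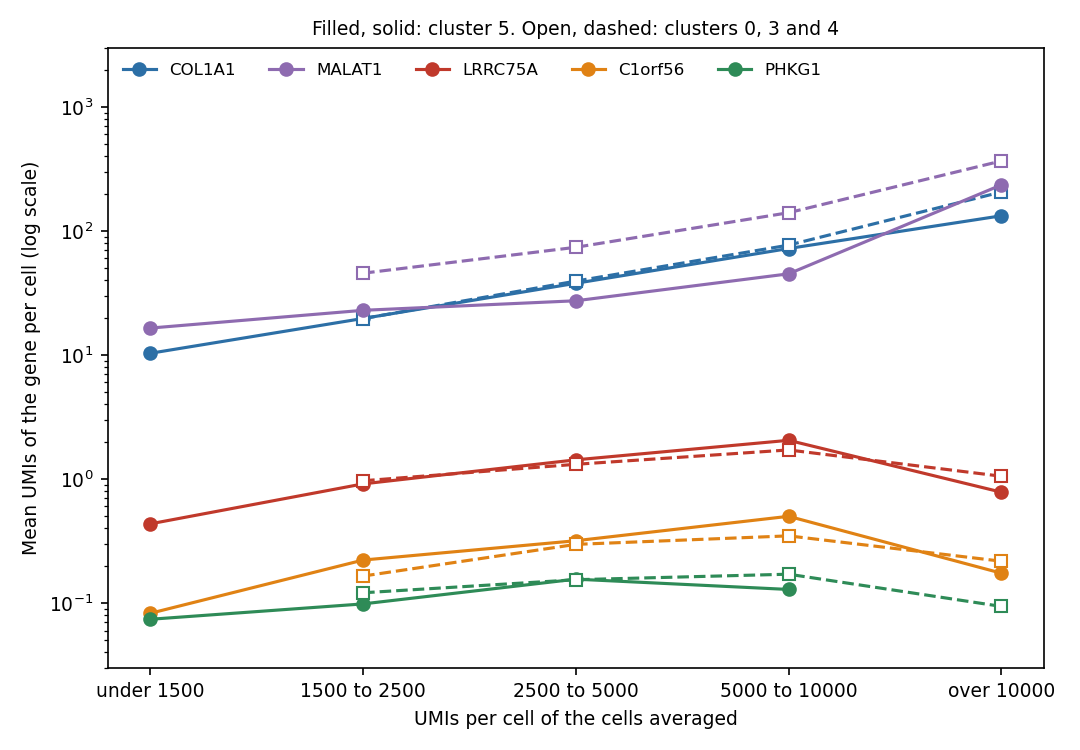
Mean UMIs of a gene per cell (log y axis) in cells binned by their total UMIs (x), for cluster 5 (filled, solid) and clusters 0, 3 and 4 (open, dashed); bins under 20 cells and values of 0 are not drawn. COL1A1 is higher in each deeper bin in both, MALAT1 is lower in cluster 5 up to 10000 UMIs, and LRRC75A and C1orf56 are lower in the deepest bin than in the bin before it in both groups.

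Binned by depth, LRRC75A was highest from 5000 to 10000 UMIs both inside and outside the cluster. It gave 0.435 UMIs per cell in cluster 5 under 1500 UMIs, then 0.913, 1.43, 2.05 and, over 10000 UMIs (23 cells), 0.783. In clusters 0, 3 and 4 it gave 0.967, 1.31, 1.71 and 1.05 over the bins from 1500 UMIs up. Cluster 5 was thus above the compared cells from 2500 to 10000 UMIs and below them in the other bins shared. The mix of compared clusters changed with depth: cluster 0 gave 1519 of 1869 cells from 5000 to 10000 UMIs and 2997 of 7490 over 10000. Over all depths LRRC75A averaged 1.57 UMIs per cell in cluster 0, 0.833 in cluster 3 and 0.733 in cluster 4. C1orf56 gave 0.500 and 0.348 UMIs per cell from 5000 to 10000 UMIs in cluster 5 and in clusters 0, 3 and 4, and 0.174 (4 UMIs) and 0.217 over 10000. PHKG1 gave 0.129 and 0.171 from 5000 to 10000, and over 10000 it had 0 UMIs in the 23 cells of cluster 5 and 0.0939 per cell in the others. COL1A1 was higher in each deeper bin, from 10.3 to 132 UMIs per cell in cluster 5.

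Genes that mark the small clusters were also present. MGP stood at 1142 CPM in cluster 10 and SFRP4 at 738 CPM in cluster 7. Genes at least 4-fold higher in cluster 7 than in clusters 0, 3 and 4 (35 genes) summed to 816 CPM in cluster 5, 510 CPM in clusters 0, 3 and 4 and 840 CPM in the same-depth cells. Those of cluster 8 (147 genes) summed to 1655, 1457 and 1666 CPM in the same order, those of cluster 9 (102 genes) to 2609, 2118 and 3093 CPM and those of cluster 10 (79 genes) to 1806, 1373 and 1909 CPM. All 4 sums were thus above clusters 0, 3 and 4 and below the same-depth cells. The genes were chosen partly for a low level in clusters 0, 3 and 4. The excess over those clusters therefore cannot be separated from that choice. The genes at least 2-fold higher in cluster 0 than in clusters 3 and 4 (46 genes) summed to 3459 CPM in cluster 5, 4194 in cluster 0, 1541 in cluster 3 and 1214 in cluster 4. By that sum cluster 5 lay nearest to cluster 0. The median log2 ratio of the 46 genes over cluster 0 was -0.80 in cluster 5, -1.39 in cluster 3 and -1.67 in cluster 4, so by the median gene cluster 5 lay between cluster 0 and cluster 3. By the sum of the 32 genes higher in cluster 3 it lay close to the level of cluster 0, with 980 and 940 CPM against 2289 CPM.

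Genes of G2 and mitosis stood higher or lower in cluster 5 according to the cells compared. The 23 listed gave 0.0166% of its UMIs (631 UMIs), 0.00878% in clusters 0, 3 and 4, 0.0181% in the same-depth cells and 0.0232% in all other TGFB1 cells. TOP2A, the DNA topoisomerase of dividing cells, stood at 11.9 CPM (45 UMIs) in cluster 5 and at 2.55, 9.77 and 12.5 CPM in those groups. UBE2C, which acts with the anaphase-promoting complex, stood at 9.75 CPM against 1.5, 8.19 and 10.8 CPM, and MKI67, a proliferation marker, at 5.80 CPM against 1.59, 6.03 and 8.11 CPM. Against clusters 0, 3 and 4, 12 of 14 genes measured were 1.5-fold higher, where 2.07% of all genes were, but some, these 3 among them, reached 5 CPM only through cluster 5 and so had to differ. Against the same-depth cells 0 of 16 were higher and 3 lower, where 1.47% of all genes were higher and 11.1% lower. Against all other TGFB1 cells 0 of 18 were higher and 8 lower, with a median log2 ratio of -0.53. Of all genes measured there, 1.59% were higher and 2.72% lower. The other TGFB1 cells include clusters 6 and 8, which held 296 and 230 CPM of TOP2A. A UMI of MKI67 or TOP2A was found in 2.94% of thinned cluster 5 cells (1.97 to 4.19), 1.55% of cluster 0 and 2.23% of same-depth cells.

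Stress lists moved little against clusters 0, 3 and 4, where 2.07% of all genes were 1.5-fold higher and 2.22% lower. Of 19 p53 and apoptosis genes 2 passed 1.5-fold upward, GDF15, a stress cytokine (18.5 against 8.37 CPM), and FDXR, ferredoxin reductase (10.3 against 6.24 CPM), and 0 downward. CDKN1A, the p53-induced cell cycle inhibitor, stood at 165 and 150 CPM. Of 23 immediate early and heat shock genes, EGR1 was higher (66.7 against 36.5 CPM, with 70.0 CPM in the same-depth cells) and FOSL1 lower (7.12 against 11.9 CPM). In the interleukin 6 family 1 of 14 passed, the kinase gene JAK2, 1.73-fold lower (10.3 against 17.8 CPM). None passed among 20 ATF4 response, 28 secretory pathway, 20 ferritin and lysosome, 17 proteasome, 16 glycolysis, 13 S100 and annexin or 23 translation factor genes. Against the same-depth cells 1 of 20 p53 and apoptosis genes was 1.5-fold higher and 2 lower, with log2 ratios from -1.67 to 0.74. Of the 23 immediate early and heat shock genes 2 were higher there and 0 lower. In the interleukin 6 family 0 of 14 were higher and 1 lower. Of all genes measured there, 1.47% were higher and 11.1% lower.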

How the data were processed

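The authors deposited a matrix of raw UMI counts for 38606 genes in the 20656 cells of both libraries, and their cell table gives the library, cluster number, total counts and percent of mitochondrial UMIs of each cell. Seurat, Cell Ranger 9.0.1 and GRCh38 are named in the submitters' processing notes, with no role given. Counts were summed over the cells of a group and divided by the group's total to give CPM, with exact binomial or conditional binomial 95% intervals. No doublet caller was run here, so any doublets were kept. Cells were thinned without replacement to 1500 UMIs (1000 and 2500 as alternatives). Genes counted from 5 CPM in either group, as different from 2-fold for single genes and from 1.5-fold for members of the lists. The 84 ribosomal protein genes were taken by name.

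The members, the 26 other gene lists, 9 marker lists and the rules were chosen with earlier results of these data known. Named genes were the 12 highest and 12 lowest ratios at 20 CPM or more, the 10 genes with the most UMIs, up to 4 members of each list by ratio and 2 by level, and fixed markers of each class. Others were named after their values were seen, and 1 gene under the rule is not reported here. Of the genes, 32264 matched GENCODE 29. Alternatives were other depths, compared cells, minimum levels, cell weights and scalings, with edgeR 4.0.16 used for TMM factors. The steps were tested on simulated data. Software was R 4.3.3, Python 3.11.15, pandas 2.3.3, scipy 1.17.1, numpy 2.4.6 and matplotlib 3.10.9.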

Additional observations from a re-analysis of the deposited data

How the results depend on the processing

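No paired analysis was possible because each condition is 1 library and no result comes from a test. Log2 ratios of UMI shares, cluster 5 over clusters 0, 3 and 4, were -0.62 for nuclear long RNAs, 0.35 for mitochondrial, 0.09 for ribosomal protein, 0.06 for matrix and -0.03 for contractile genes, with 64 genes at least 2-fold higher and 13 lower. Values below moved beyond the counting interval, or by over 1.5 times for a count; the cause was not tested. With equal weight for each cell, 98 genes were higher and 26 lower, and the log2 ratios were nuclear long RNAs -0.50, mitochondrial 0.31, ribosomal protein 0.069, matrix 0.034 and contractile -0.070. With cells thinned to 1500 UMIs, 151 genes were higher and 127 lower, and the log2 ratios were nuclear long RNAs -0.64, mitochondrial 0.34, ribosomal protein 0.079, matrix 0.056 and contractile -0.053. With cells thinned to 1000 UMIs, 222 genes were higher and 248 lower, and the log2 ratios were nuclear long RNAs -0.60, mitochondrial 0.33, ribosomal protein 0.078, matrix 0.037 and contractile -0.048. With cells thinned to 2500 UMIs, 171 genes were lower, and the log2 ratios were nuclear long RNAs -0.82, mitochondrial 0.32, ribosomal protein 0.095, matrix 0.076 and contractile -0.019. Against the same-depth cells, 15 genes were higher and 209 lower, and the log2 ratios were nuclear long RNAs -0.90, mitochondrial 0.066, ribosomal protein 0.28, matrix -0.011 and contractile 0.10. Against cluster 0 alone, 40 genes were higher and 116 lower, and the log2 ratios were nuclear long RNAs -0.99, mitochondrial 0.45, ribosomal protein 0.20, matrix -0.082 and contractile 0.071. Against cluster 3 alone, 207 genes were higher and 182 lower, and the log2 ratios were nuclear long RNAs -0.59, mitochondrial 0.13, ribosomal protein 0.14, matrix 0.31 and contractile 0.018. Against cluster 4 alone, 698 genes were higher, and the log2 ratios were nuclear long RNAs 0.51, mitochondrial 0.49, ribosomal protein -0.18, matrix 0.045, other secreted -0.15 and contractile -0.27. In cells with at least 1000 genes, 23 genes were lower, and the log2 ratios were nuclear long RNAs -0.69, ribosomal protein 0.092, matrix 0.072 and contractile -0.022. With totals that leave out MALAT1, NEAT1, mitochondrial and ribosomal protein genes, 30 genes were lower. With a minimum of 20 CPM, 10 genes were higher and 0 lower. With a minimum of 50 CPM, 4 genes were higher and 0 lower. With no minimum, 2260 genes were higher and 10375 lower. Without cluster 5 cells over 10000 UMIs, the log2 ratios were nuclear long RNAs -0.67, mitochondrial 0.40, ribosomal protein 0.069, matrix 0.070 and contractile -0.042. In cells up to 4% mitochondrial UMIs, 32 genes were lower, and the log2 ratios were nuclear long RNAs -0.58, mitochondrial 0.27, ribosomal protein 0.098, matrix 0.049 and contractile -0.017. Against all other TGFB1 cells, 42 genes were higher and 21 lower, and the log2 ratios were nuclear long RNAs -0.65, mitochondrial 0.36, ribosomal protein 0.10 and contractile -0.0013. Directions reversed for nuclear long RNAs, ribosomal protein and other secreted genes against cluster 4 alone, for matrix and contractile genes against cluster 0 alone and the same-depth cells, and for contractile genes against cluster 3 alone. The median log2 ratio of G2 and mitosis genes was 1.14 over clusters 0, 3 and 4, where some members passed the minimum only through cluster 5. Against the same-depth cells it was -0.065, where the median of all genes was -0.11. The ratio of UMI shares there was 0.92, with an interval (0.83 to 1.01) that includes equality. Against all other TGFB1 cells the median log2 ratio of these genes reversed to -0.53. Counts with no minimum include genes with 0 UMIs in cluster 5, and thinning leaves few UMIs per gene, so more genes pass 2-fold. TMM and median-of-ratios factors shifted list medians by at most 0.03. Comparisons with all other TGFB1 cells, with cells up to 4% mitochondrial UMIs, without cells over 10000 UMIs and with untreated cells of the same depth were chosen after seeing the data. The alternatives for TGFB1 over untreated within cluster 5 were not run, since 6 untreated cells fall short of the 50 required. The depth of cluster 5, 3793281 UMIs, limits genes near 5 CPM to about 19 UMIs.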
